A study of Mus musculus with 7 samples.

Results

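The genes of the proteasome were followed through the regrowth of a mouse calf muscle after disuse. The members were all genes whose platform symbol starts with Psm, a letter from a to g and a number, which gave 50 of the 19938 genes named on the array. Of these, 46 passed the filter on low values, which kept 12102 genes that reached the median intensity of all rows on at least 1 array. The left plantaris, a fast calf muscle, came from male C57BL/6J mice of 5 months. All the animals, the controls included, had spent 2 weeks in hindlimb suspension, which takes the load off the hind limbs. The controls (d0) were sampled when suspension ended, and the other groups after 1, 3, 5, 7, 10 and 14 days of reloading (d1 to d14). Each time point was a pool of RNA from 6 animals on a single Affymetrix Mouse Gene 1.0 ST array, and no group of animals that were never suspended is analysed here. With 1 array a day and no replicates, a difference between days carries no error and no p-value. In whole muscle, fewer cells of a type and less RNA per cell cannot be told apart.

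The proteasome is the barrel-shaped protease that degrades proteins tagged with ubiquitin. Its core is built of outer rings of alpha subunits (Psma genes) and inner rings of beta subunits (Psmb genes), some of which carry the active sites, and its cap of ATPases (Psmc) and other subunits (Psmd) recognises, unfolds and feeds in the substrate. In immune cells and after interferon, the beta subunits Psmb8, Psmb9 and Psmb10 replace Psmb5, Psmb6 and Psmb7, and the activators Psme1 and Psme2 can take the place of the cap. In muscle the proteasome is known as the main route by which contractile proteins are lost during atrophy.

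By role, the 50 members were 7 alpha and 7 constitutive beta subunits, 3 immunoproteasome beta subunits, 6 cap ATPases, 11 other cap subunits, 3 chaperones that assemble the cap base (Psmd5, Psmd9 and Psmd10), 4 chaperones that assemble the core (Psmg1 to Psmg4), 4 activators (Psme1 to Psme4) and the inhibitor PI31 (Psmf1). The other members were the testis-specific alpha subunit Psma8, the thymus-specific beta subunit Psmb11, and Psmc3ip and Psme3ip1. The last pair share a symbol stem only: Psmc3ip is a meiotic recombination factor and Psme3ip1 a protein that binds an activator. The 4 members below the filter were Psma8, Psmb11, Psmc3ip and Psmg3. Psma8 lay between 40 and 52 on every array, below the lowest array median of 128.1, and Psmb11 between 61.5 and 84.3. Psmb8 passed the filter only through the later arrays, since its d0 value was below the median, whereas the other 45 were above it on all 7 arrays. The 31 stoichiometric subunits of core and cap (7 alpha, 7 constitutive beta, 6 ATPase and 11 other cap subunits) all passed.

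Markers of several cell types differed between the d0 and d1 arrays. All 12 muscle fibre markers passed the filter; their summed intensity was 152762 on d0, was lowest on d1 (149183) and highest on d10 (160039). That sum rests on genes of very high signal and does not show the lower ones: Myh2, a fast myosin heavy chain, had 5598 on d0, 8223 on d1 and 11865 on d3, and Myh7, the slow one, had 234, 389 and 776. On d1 Mylpf stood at -0.13 and Actn3 at -0.12. The endothelial sum was lowest on d0 (4919, against 6091 on d1 and 6263 on d3), with Kdr at 0.74 on d1. The fibroblast sum was lowest on d1 (13906, against 15111 on d0). Most of that sum is Dcn, with 11352 on d0 and 9912 on d1 (-0.20). The other genes went both ways, with Lum at 0.62, Col3a1 at 0.38, Fap at 0.35, Col1a1 at 0.12, Dpt at -0.11 and Pdgfra at -0.17. The satellite cell sum was highest on d1 (1825, against 1618 on d0). Most of that difference is Myod1, with 607 on d0 and 790 on d1 (0.38). Cdh15 stood at 0.11, Chodl at 0.05 and Pax7 at -0.01 on d1. The red cell sum ran from 1212 on d5 to 2033 on d10. The part of these cells in the d1 values of the proteasome genes was not tested. The median of an array lay between 128.1 and 131.8. Ratios of d1 to d0 over all genes had a robust SD of 0.179 on the log2 scale, against 0.105 for d7 and d14, which stands in for replicate error here but holds biology too.

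Promoters of the 4 members with the largest d1 to d0 ratios are printed, since the d1 array is where most subunits were highest. RefSeq's promoters of GRCm38.p6 held 42 of the 50 members, and the 250 bases before the start site were searched on both strands. Each line gives the gene and its promoter from 5′ to 3′ on the gene's strand. Capitals mark CCGGAAG, a core of ETS factor sites, CCAAT, the NF-Y box, and TGACNNNGC, the core of the antioxidant response element bound by the NFE2L factors that drive proteasome genes, in either orientation. Psmd11 lies on the plus strand with the window chr11:80428365-80428614, Psma1 on the minus strand (chr7:114276117-114276366), Psmd5 on the minus strand (chr2:34870963-34871212) and Psmc6 on the plus strand (chr14:45329574-45329823).
Psmd11: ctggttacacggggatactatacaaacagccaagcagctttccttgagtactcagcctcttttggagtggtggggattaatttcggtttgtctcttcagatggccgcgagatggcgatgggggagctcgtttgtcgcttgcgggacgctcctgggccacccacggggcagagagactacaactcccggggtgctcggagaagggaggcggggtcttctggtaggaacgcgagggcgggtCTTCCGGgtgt
Psma1: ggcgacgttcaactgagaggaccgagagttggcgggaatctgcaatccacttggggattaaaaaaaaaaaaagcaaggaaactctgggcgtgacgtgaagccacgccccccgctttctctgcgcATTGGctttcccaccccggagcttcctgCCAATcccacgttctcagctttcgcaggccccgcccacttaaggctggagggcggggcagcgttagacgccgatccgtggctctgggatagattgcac
Psmd5: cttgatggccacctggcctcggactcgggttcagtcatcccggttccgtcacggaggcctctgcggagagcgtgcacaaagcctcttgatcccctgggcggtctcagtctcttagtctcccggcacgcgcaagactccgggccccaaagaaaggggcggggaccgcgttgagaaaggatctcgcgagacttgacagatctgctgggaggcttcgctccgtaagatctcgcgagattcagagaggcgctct
Psmc6: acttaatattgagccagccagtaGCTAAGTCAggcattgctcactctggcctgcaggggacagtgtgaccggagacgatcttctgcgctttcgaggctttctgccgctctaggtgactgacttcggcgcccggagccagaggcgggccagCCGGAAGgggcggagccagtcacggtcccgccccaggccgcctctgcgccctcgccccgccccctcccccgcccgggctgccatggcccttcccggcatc

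The Psmd11 window held 1 ETS word, whose first base is at -11 from the start site. The Psma1 window held CCAAT in both orientations, at -126 and -98, the Psmc6 window an antioxidant word at -227 and an ETS word at -100, and the Psmd5 window none of the words searched. Of the 25 core and cap subunits with a promoter in the table, 9 (36%) held the ETS word, against 14.3% of the 9642 kept genes with a promoter. CCAAT was in 10 (40%) against 39.3%, the antioxidant core in 4 (16%) against 13.7%, and the heat shock word GAANNTTC in 1 (4%) against 6.05%. No matches overlapped in the printed windows. The d1 to d0 ratio had a median of 0.22 in the 9 subunits with the ETS word and 0.22 in the 16 without it, so the medians with and without this word were alike. A match is a description of letters and not a bound site.

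One day into reloading, most alpha ring and cap genes of the proteasome were at their highest level of the course. The 46 members had a median log2 ratio of d1 to d0 of 0.20, and all kept genes one of 0.10. At d1, 36 members (78.3%) were higher than at d0, and 70.9% of all genes were higher too, so the count of higher members lies near the background. Members at least 1.5-fold higher numbered 2, Psmd11 and Psma1, where 3.45% of all genes passed that fold, and 0 were 1.5-fold lower (1.02% of all genes). The size of the shift and its day set the members apart as a description: 27 of the 46 (58.7%) had their highest of the 7 values at d1, against 28.6% of all genes. For the 31 core and cap subunits the count was 21 (67.7%), with a median d1 to d0 ratio of 0.22. Over the 45 members above the array median on all 7 arrays, which leaves out Psmb8, 35 were higher at d1 and 27 were highest there. Of the 10481 such genes, 70.9% were higher and 30.9% highest there.

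On the later days the members were back near the level of all genes or, as on d7, somewhat below it. Their median log2 ratio to d0 was 0.03 on d3, 0.05 on d5, 0.01 on d7, 0.08 on d10 and 0.06 on d14, where all genes had 0.07, 0.05, 0.08, 0.10 and 0.08. On those days 27, 28, 26, 32 and 35 of the 46 members were higher than at d0, and of all genes 65.5%, 61.1%, 66%, 72.2% and 71.3%. On none of these days was a member 1.5-fold higher, where 1.65%, 1.36%, 1.74%, 2.28% and 0.678% of all genes were. None was 1.5-fold lower either (0.843%, 0.802%, 0.859%, 0.826% and 0.694% of all genes). With d14 as the reference, the median at d1 was 0.12 in the members and 0.00 in all genes, and 31 of 46 members were higher (50.8% of all genes). Psmd11 alone was 1.5-fold higher than at d14, a fold that 1.61% of all genes passed. Both references share the d1 array. At d7, the median ratio to d14 was -0.05 in the members and 0.00 in all genes. On that day 9 of 46 members were higher than at d14 (43.9% of all genes).

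**Figure D1:**
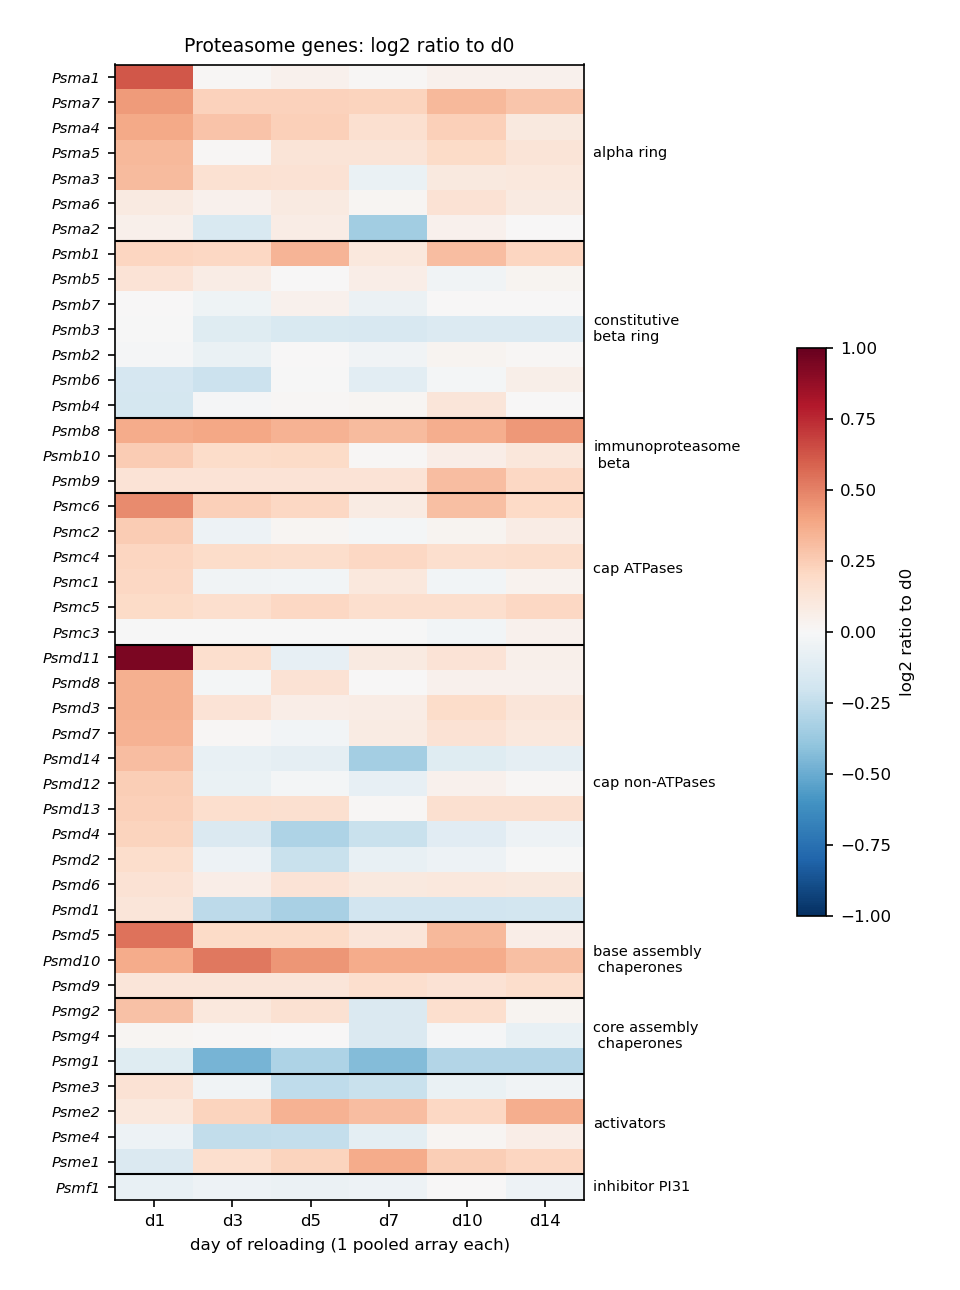
Log2 ratio to d0 of 45 proteasome genes (rows, grouped by role) on the 6 arrays of reloading (columns, 1 pooled array each), with red for higher and blue for lower than d0. The d1 column is red over nearly all of the alpha ring and cap rows and pale over the constitutive beta ring, and Psmd11 reaches 0.94.

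The alpha ring, whose subunits form the gate of the core, had a median ratio of 0.33 on d1. At d1, 7 of 7 members were higher than at d0 (70.9% of all genes) and 5 of 7 were highest (28.6% of all genes). With d14 as the reference, the median at d1 was 0.19, and 6 of 7 were higher (50.8% of all genes). The lowest value was at d0 in 5 of 7 (39.4% of all genes). All values of single arrays here and below are deposited intensities on a linear scale, and all ratios are log2 ratios to d0 unless stated. Psma1, an alpha ring subunit, had an intensity of 1307 on d0, 2009.5 on d1, 1319 on d3, 1344 on d5, 1315 on d7, 1348 on d10 and 1344 on d14. Only d1 stood apart in this gene: it was 1.54-fold higher than d0 (log2 0.62, rank 361 of 12102 genes), and the other 6 values lay within 0.04 of each other on the log2 scale. Psma7 had 577 on d0, 775 on d1, 679 on d3, 678 on d5, 675 on d7, 724 on d10 and 698 on d14. Here every reloaded array was above d0, by 0.42 on d1 and by 0.22 to 0.33 later. Psma4 had 999.8 on d0, 1300.3 on d1, 1219.7 on d3, 1177 on d5, 1118 on d7, 1179 on d10 and 1069 on d14. It was highest at d1 (0.38) and lay lower on every later array, down to 0.10 on d14. Psma2 had the smallest d1 ratio of the ring (0.05), with 496 on d0, 513 on d1, 446 on d3, 523 on d5, 389 on d7, 511 on d10 and 496 on d14. Its low array was d7 (log2 -0.35), and no other member differed as much between d7 and d14. The remaining subunits stood at 0.33 (Psma5), 0.32 (Psma3) and 0.09 (Psma6) at d1.

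The constitutive beta ring, which holds the proteolytic sites, did not share the d1 values of the alpha ring. Its median ratio was -0.00 on d1 (-0.04 after quantile normalization and 0.01 with equal array medians, so its sign depends on the scaling). Of its 7 members, 2 were higher than at d0 (70.9% of all genes) and 1 was highest at d1 (28.6% of all genes). Psmb5, the chymotrypsin-like subunit, had 5436 on d0, 5982 on d1, 5735 on d3, 5451 on d5, 5680.5 on d7, 5301 on d10 and 5544 on d14. It was the single beta member with its highest value at d1 (log2 0.14). Psmb6, the caspase-like subunit, had 1336 on d0, 1191 on d1, 1154 on d3, 1331 on d5, 1241 on d7, 1318 on d10 and 1392 on d14. Its d1 and d3 arrays were the lowest (-0.17 and -0.21). Psmb7, the trypsin-like subunit, had the same deposited value of 1579 on d0, d1 and d10, with 1536 on d3, 1625 on d5, 1518 on d7 and 1586 on d14. Psmb4, which has no proteolytic site, had 2734 on d0, 2426 on d1, 2718 on d3, 2752 on d5, 2775 on d7, 2968 on d10 and 2743 on d14. Its d1 array was its lowest, by 0.17 below d0, whereas most cap and alpha genes had their highest value there. Psmb1 was the highest of the ring at d1 (0.22) but higher still at d5 (0.34), with 807 on d0, 938 on d1, 930.3 on d3, 1024 on d5, 868 on d7, 1001 on d10 and 938 on d14. Psmb2 and Psmb3 stood at -0.01 and -0.00 on d1, and Psmb3 was between -0.12 and -0.16 on the later arrays.

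**Figure D2:**
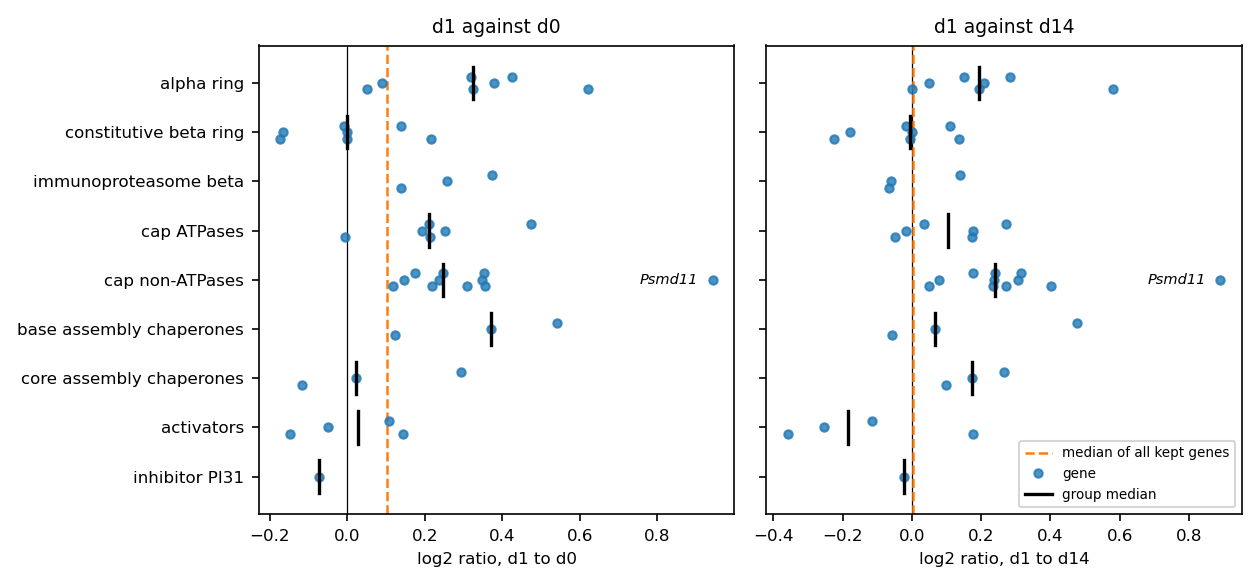
Log2 ratio of d1 to d0 (left) and of d1 to d14 (right) for each gene (point), by role, with the group median (black bar, not drawn for the immunoproteasome) and the median of all kept genes (dashed line, 0.10 left and 0.00 right). The cap non-ATPases lie above 0 in 11 of 11 genes in both panels, and the constitutive beta ring lies around 0 in both.

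The cap subunits that are not ATPases shared the high d1 array. All 11 were higher at d1 than at d0 (median 0.25), where 70.9% of all genes were. All 11 were also higher at d1 than at d14 (median 0.24), where 50.8% of all genes were. The highest value was at d1 in all 11, against 28.6% of all genes. After quantile normalization it was there in 9 of 11 (23.5% of all genes), with a median d1 to d0 ratio of 0.18. Psmd11, a lid subunit whose phosphorylation is known to raise proteasome activity, had 1286 on d0, 2473 on d1, 1443 on d3, 1212 on d5, 1372 on d7, 1412 on d10 and 1334 on d14. Its d1 array lay far above the others: 1.92-fold above d0 (log2 0.94, rank 91 of 12102) and 1.85-fold above d14 (0.89, rank 65). The d3 array (0.17) was already close to d10 (0.13), and the d5 array was slightly below d0. Psmd8, a lid subunit, had 2112 on d0, 2700.3 on d1, 2085 on d3, 2331 on d5, 2118 on d7, 2171 on d10 and 2171 on d14. Psmd3, also of the lid, had 642 on d0, 820.1 on d1, 707 on d3, 671 on d5, 676 on d7, 729 on d10 and 697 on d14. Both were 0.35 above d0 on d1, and their later values stayed below the d1 value.

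Psmd1, the large scaffold subunit of the cap base, had the smallest d1 ratio of the group (0.12). It had 2941 on d0, 3191 on d1, 2455 on d3, 2349 on d5, 2581 on d7, 2573 on d10 and 2583 on d14. From d3 on it lay below d0 on every array, by 0.19 to 0.32, so its d1 value stood 0.31 above d14. Psmd4, a ubiquitin receptor, had a like course, with 0.22 on d1 and -0.30 on d5. Psmd14, the deubiquitinase of the lid, was at 0.31 on d1 and -0.34 on d7. Psmd2, the other scaffold of the base, was at 0.18 on d1 and -0.22 on d5. The lid subunits Psmd7, the partner of Psmd14, Psmd12, Psmd13 and Psmd6 stood at 0.35, 0.25, 0.24 and 0.15 on d1.

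Of the 6 cap ATPases, which unfold the substrate, 5 were higher at d1 than at d0 (median 0.21) and 4 had their highest value there. Of all genes, 70.9% were higher at d1 and 28.6% highest there, so the count of higher ATPases lies near the background. Against d14, the d1 ratios of Psmc6, Psmc2 and Psmc1 were 0.27, 0.18 and 0.17. Those of Psmc4, Psmc5 and Psmc3 were 0.03, -0.02 and -0.05. Psmc6 had 1397 on d0, 1939.5 on d1, 1651 on d3, 1614 on d5, 1476 on d7, 1725 on d10 and 1606 on d14. It was 1.39-fold higher at d1 (log2 0.47) and stayed above d0 on each later array. Psmc3 had the smallest ratio (-0.01), with 640 on d0, 637 on d1, d3, d5 and d7, 629 on d10 and 658 on d14, and its highest array was only 1.05-fold above its lowest. Psmc2 stood at 0.25, Psmc4 and Psmc1 at 0.21 and Psmc5 at 0.19 on d1; Psmc4 and Psmc5 kept 0.17 to 0.21 on all later arrays, whereas Psmc1 and Psmc2 were between -0.05 and 0.10 there.

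**Figure D3:**
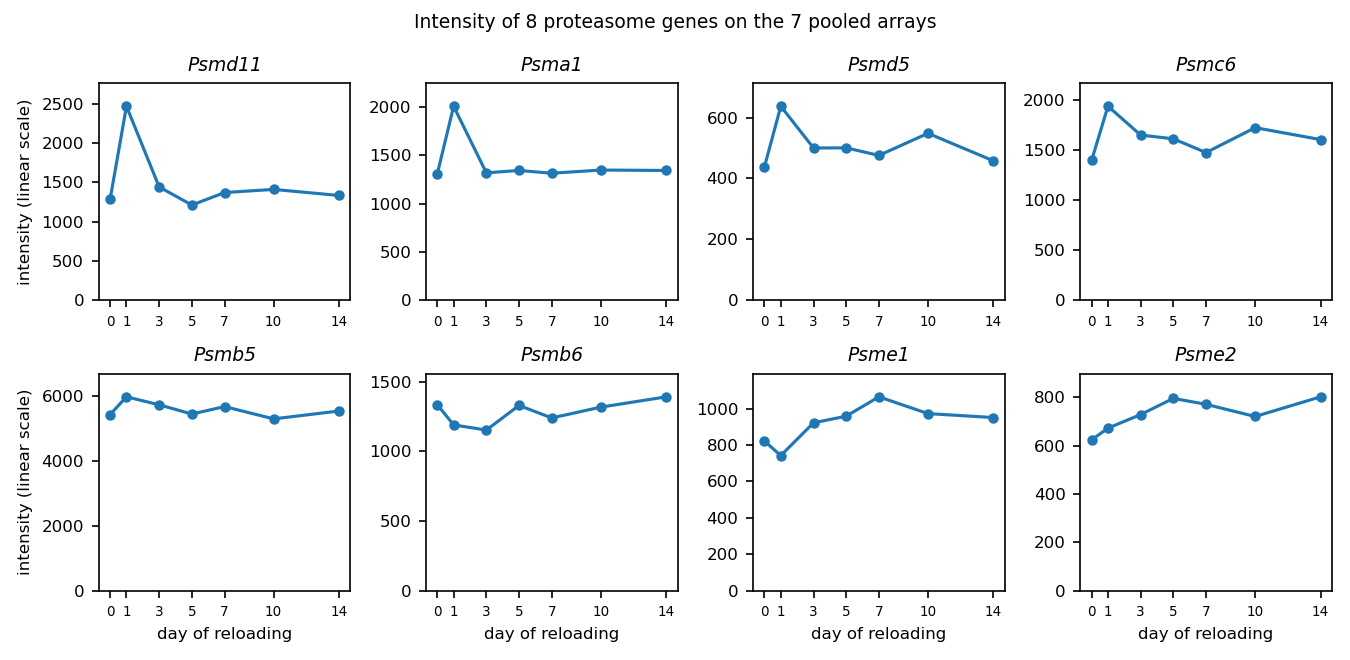
Intensity on a linear scale (y axis, from 0) against the day of reloading (x axis) for 8 proteasome genes, 1 pooled array per point. Psmd11 and Psma1 show a single high point at d1 (2473 and 2009.5), Psme1 has its lowest point there (742), and Psme2 has its lowest at d0 (624).

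The chaperones that assemble the cap base were higher at d1 than at d0 in 3 of 3 genes, with a median of 0.37. Of all genes, 70.9% were higher too. Psmd5 had 438 on d0, 638 on d1, 500.4 on d3, 501 on d5, 476 on d7, 549 on d10 and 458 on d14. Its d1 value was 1.45-fold above d0 (log2 0.54), the third largest ratio among the members, and 0.48 above d14. Psmd10 (gankyrin) had 330.5 on d0, 428 on d1, 478 on d3, 449.9 on d5, 428 on d7, 428 on d10 and 408 on d14. It had its highest value at d3 (0.53), and each reloaded array stood at least 0.30 above d0. Psmd9 had 211 on d0, 229 on d1, d3 and d5, 237 on d7, 232 on d10 and 239 on d14, a range of 0.18.

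The 3 measured chaperones of core assembly went different ways. Psmg2 had 487 on d0, 597 on d1, 523 on d3, 540.1 on d5, 440.1 on d7, 546 on d10 and 496 on d14, with its highest value at d1 (0.29) and its lowest at d7. Psmg1, its dimer partner, had 529 on d0, 487 on d1, 384 on d3, 426 on d5, 391 on d7, 432 on d10 and 432 on d14. It was highest at d0 and lower on every reloaded array, by as much as 0.46 on d3. Psmg4 stayed between -0.14 and 0.02 of d0.

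The immunoproteasome subunits Psmb9 and Psmb10 had their lowest value at d0, where 39.4% of all genes had theirs. Psmb8 did too, but it passed the filter only because its later arrays were higher, so its low d0 adds nothing to a count. The ratios of the 3 genes to d14 on d1 were -0.06 for Psmb8, -0.07 for Psmb9 and 0.14 for Psmb10, so a single high array at d1 was not their pattern. Psmb8 had 116 on d0, 149.8 on d1, 151 on d3, 147 on d5, 144 on d7, 149 on d10 and 156 on d14. All the reloaded arrays were above d0, by 0.31 to 0.43, but since d0 lay under the filter these values are near the low end of measured signal. Psmb9 had 239 on d0, 263 on d1, 263 on d3, 262 on d5, 263 on d7, 296 on d10 and 276 on d14, that is 0.14 above d0 until d7 and 0.31 on d10. Psmb10 had 279 on d0, 333 on d1, 317 on d3, 318 on d5, 281 on d7, 292 on d10 and 302 on d14, with its highest array at d1 (0.26) and a d7 array at the level of d0. Relative to the constitutive subunit it replaces, Psmb9 over Psmb6 was 0.14 to 0.35 above its d0 level on the reloaded arrays and Psmb10 over Psmb7 0.07 to 0.26, all against the same d0 array. Against d14 these differences did not keep their sign: on d1 to d10, Psmb9 over Psmb6 lay between -0.00 and 0.21, Psmb10 over Psmb7 between -0.04 and 0.15, and Psmb8 over Psmb5 between -0.17 and -0.00.

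Immune cell markers differed between the same arrays. Sums here run over every marker of a list on the array, those below the filter included. The 15 macrophage markers, of which 11 passed the filter, summed to 4841 on d0, 7200 on d1 and 4372 on d14, with Cd68 at 2.04 and Lgals3 at 0.65 on d1. The sum of the 13 neutrophil markers (12 past the filter, several of them below the array median on d0) ran from 1857 on d0 to 10021 on d10, with Ngp at 3.46 on d10. The 7 leukocyte markers, such as Ptprc, summed to between 1872 on d0 and 2864 on d10. The 13 T and NK cell markers summed to between 823 and 926 and the 6 B cell markers to between 548 and 718, and most of these genes were below the filter (2 and 1 passed). The 9 dendritic cell and MHC class II markers, 5 of them past the filter, summed to between 3359 and 3804. Psmb10 was highest at d1, where the macrophage and satellite cell sums were highest. Psmb8 was highest at d14, where the macrophage sum was lowest. The reloaded arrays of Psmb8 spanned 0.12 on the log2 scale. Psmb9 was highest on d10, where the neutrophil and leukocyte sums were highest. The B cell, muscle fibre, fibroblast and red cell sums were highest on d10 too, so that array does not single out an immune cell type. The part of these cells in the immunoproteasome and activator values was not tested.

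The activators had no common course at d1, with 2 of 4 higher than at d0 (70.9% of all genes). Their median was 0.03 (-0.04 after quantile normalization, so the sign depends on the scaling). Psme1 and Psme2, which form the PA28 ring, had their highest values at d7 and d14. Psme1 had 822 on d0, 742 on d1, 922 on d3, 959 on d5, 1065 on d7, 973 on d10 and 951 on d14. Its d1 array was its lowest (-0.15) and its d7 array its highest (0.37). Psme2 had 624 on d0, 673 on d1, 729 on d3, 796 on d5, 771 on d7, 721 on d10 and 802 on d14, with d0 lowest and d14 highest (0.36). A further row that carries both the Psme2 and Psme2b symbols was not used. Psme3, the nuclear activator, had 1430.3 on d0, 1581 on d1, 1394 on d3, 1197 on d5, 1228 on d7, 1364 on d10 and 1399 on d14. It was highest at d1 (0.14) and lowest at d5 (-0.26), a course like that of Psmd4. Psme4 (PA200) had 2932 on d0, 2831 on d1, 2468 on d3, 2483 on d5, 2737 on d7, 2977 on d10 and 3063 on d14, lowest at d3 (-0.25). The inhibitor Psmf1 hardly varied, with 541 on d0, 515 on d1, 523 on d3, 519 on d5, 523 on d7, 544 on d10 and 523 on d14, a highest array 1.06-fold above its lowest.

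**Figure D4:**
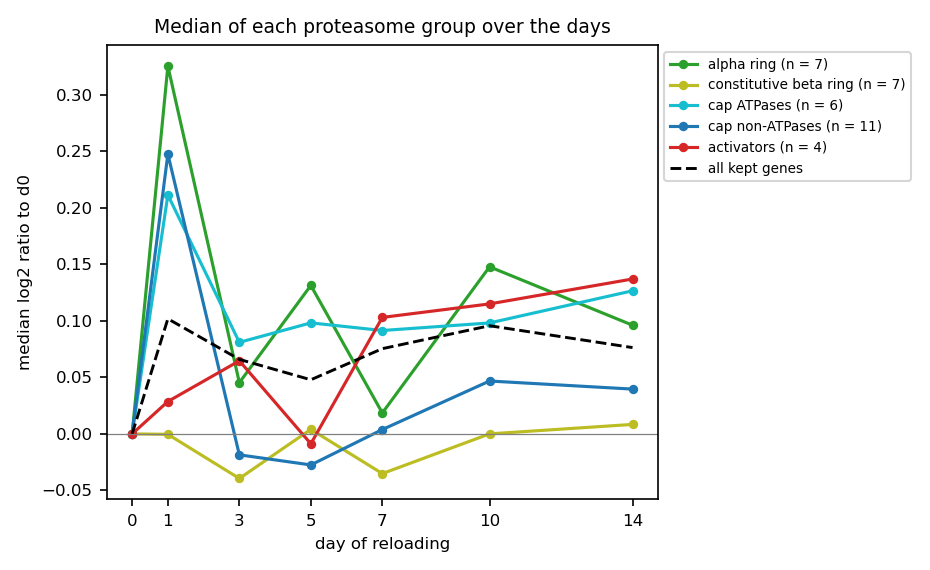
Median log2 ratio to d0 (y axis) of 5 proteasome groups and of all kept genes (dashed) against the day of reloading (x axis), 1 pooled array a day. The alpha ring (0.33) and both cap groups (0.21 and 0.25) peak at d1 and lie at most 0.15 later and the constitutive beta ring stays within 0.04 of d0.

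Among the subunits the courses were alike to a moderate degree. Over the 7 arrays the 31 core and cap subunits had a median pairwise Pearson r of 0.44 (465 pairs), and all kept genes one of 0.12; all pairs share the same arrays, so this is a description. Against the median course of the other core and cap subunits, Psmd3 (0.96), Psma1 (0.95), Psmd7 (0.92) and Psmc2 (0.92) were most alike. The lowest r values were those of Psmb4 (-0.80), Psme1 (-0.69), Psmb6 (-0.47) and Psmf1 (-0.46). Psmf1 spanned only 0.08 on the log2 scale, so its r describes very small differences. Among the 6 reloaded arrays alone, 29 of 46 members were highest at d1 (30.6% of all genes), and 16 were lowest at d7 (18.4% of all genes).

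A trend over the days was fitted with limma across all kept genes, with the slope on log2(day + 1). No member passed an adjusted p of 0.05, and neither did any of the 12102 genes (0%). The smallest adjusted p of a member by limma was 0.341 for Psme2, with a slope of 0.083 (SE 0.023) per log2 day unit and every reloaded array above d0. At an unadjusted limma p of 0.05, 5 members sloped upward (Psme2, Psme1, Psmb9, Psmd9 and Psmb8, the last kept only through its later arrays) and 2 downward (Psmb3 and Psmg1), where 9.19% and 1.45% of all genes did. Without d0, 43 genes passed the adjusted threshold (0.355%) and again 0 members. The smallest adjusted limma p was then 0.221, for Psma4 (slope -0.09), and Psmd11 had a slope of -0.27 (adjusted p 0.291). Without d0, 3 members sloped upward and 5 downward at an unadjusted limma p of 0.05, where 6.88% and 6.39% of all genes did. A straight line describes a single high array poorly, as in Psmd11.

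For 5 members more than 1 row of the array carried the symbol. The 3 Psma3 rows gave 0.32, 0.32 and 0.33 on d1, and the Psmd2 rows 0.18 and 0.19. The second Psma5 row gave 0.53 against 0.33, the second Psmc1 row 0.04 against 0.21, and the second Psmb3 row 0.03 against -0.00. Whether these rows lie on near-identical gene copies is not given in the sources used here, so the values of these 5 genes are less certain.

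Genes that work beside the proteasome were counted from lists of their functions, beside the 70.9% of all genes that were higher at d1 and the 3.45% that were 1.5-fold higher. Usp11, Tapbpl, Ifit1 and Oas1a are in these counts but were below the median on some arrays. All 12 measured further parts and partners of the proteasome were higher at d1 than at d0 (median 0.15), and 1 was past 1.5-fold (log2 0.58), by a narrow margin. This was Zfand2a, a heat-inducible proteasome-binding protein, which had 1552 on d0, 2328 on d1 and between 1553 and 1924 later, so d1 was its highest array (0.59). Txnl1, a thioredoxin of the cap, was at 0.43, the cap-bound deubiquitinase Usp14 at 0.42 and the cap-bound ligase Ube3c at 0.30. Of 9 regulators of proteasome genes 8 were higher (median 0.11), with Stat3 at 0.56, the small Maf proteins Mafk at 0.52 and Mafg at 0.32, and Nfe2l1, the factor known to restore proteasome gene expression, at 0.11; 0 were past 1.5-fold.

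Of 19 shuttle receptors and p97 cofactors, which carry ubiquitylated proteins to the proteasome, 17 were higher at d1 (median 0.16) and 1 was past 1.5-fold. Ubxn4, a p97 cofactor of the endoplasmic reticulum, had 884 on d0, 1534 on d1 and between 856 and 921 on the later arrays. Like Psmd11 it had a single high array (0.80). Ubqln1 was at 0.49, Faf1 at 0.34 and the ligase Ube4a at -0.35. Of 29 deubiquitinases 27 were higher (median 0.13) and 2 were past 1.5-fold, Otud1 at 2.09 and Usp28 at 1.63; Usp28 had 766 on d0, 2365 on d1 and 1024 to 1086 later. Of 11 ubiquitin, E1 and E2 genes 6 were higher (median 0.05) and 0 were past 1.5-fold, with the E2 enzyme Ube2g2 at 0.50, Uba3, a subunit of the NEDD8 activating enzyme, at 0.40 and the ubiquitin E1 Uba6 at 0.37.

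Genes of class I antigen presentation, which use the peptides of the immunoproteasome, were higher at d1 in 8 of 10 (median 0.24), and 1, Pdia3, was past 1.5-fold. The largest ratios were those of the chaperones and trimming enzyme of the endoplasmic reticulum Pdia3 (0.86), Erap1 and Canx (both 0.58, just under that fold) and Calr (0.38). The peptide transporter genes Tap1 and Tap2 stood at 0.11 and 0.25, B2m, the light chain, at 0.22 and Tapbpl at 0.09. The genes lower at d1 were Tapbp (-0.10) and Nlrc5 (-0.06). Interferon response genes were higher in 7 of 14 (median -0.02) and 0 were past 1.5-fold, with Gbp4 at -0.33, Usp18 at 0.22 and Iigp1 at -0.20. Their median was 0.09 at both d3 and d10, near the 0.07 and 0.10 of all genes on those days. On d10 Gbp4 stood at 0.27, Iigp1 at 0.54, Usp18 at 0.17 and Oas1a at -0.13. Gbp4 and Iigp1, like Psmb9, had their highest array on d10, whereas Usp18 and Oas1a had theirs on d1. A part of interferon in the Psmb9 values was not tested.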

How the data were processed

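Total RNA was prepared with Trizol and carried a biotin label, per the labels' protocols, which give 250 ng as input where the design text gives 100 ng. The deposited table holds intensities on a linear scale, 1 per row and array, which the authors made with steps not described in the labels; array medians are nearly equal, and the submitters' processing notes name Partek without a step. How background and normalization were handled, and on which genome build, is not given in the sources used here. Values were put on the log2 scale (pseudocount 0). A single gene symbol in the platform annotation belongs to 21789 of the 35556 rows; for each gene the row of highest mean log2 value was used. The filter kept genes at or above the array median on at least 1 array. Identical values on several arrays occur in 53.7% of all rows and in 17 of the 46 kept members; a tied highest or lowest value counts for the earliest array. Each day was set against d0, and against d14, as a ratio of 1 array to 1 array, called at 1.5-fold. Trends used limma 3.58.1 under R 4.3.3 (lmFit, then eBayes with trend, two-sided, Benjamini-Hochberg over all kept genes), and the script was tested on simulated data. Pools of different animals at each day are its error, which also holds departures from a line. Python 3.11.15, numpy 2.4.6, pandas 2.3.3 and matplotlib 3.10.9 did the rest. The members and gene lists were chosen with earlier results of these data known. Values on every array are given for the 10 members with the largest d1 to d0 ratio and the highest and lowest of each role. They are also given for all immunoproteasome subunits and their constitutive partners, all activators and the inhibitor. Of most other lists up to 4 genes are named, and more of the class I, interferon and fibroblast lists. The alternatives were other filters, normalizations, row choices, folds, references, day scales and each array left out.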

Additional observations from a re-analysis of the deposited data

How the results depend on the processing

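The count of members at least 1.5-fold higher at d1 than at d0 was 2, where 3.45% of all genes passed. It became 1 after quantile normalization (2.93% of all genes) and 1 with d14 as the reference (1.61%). It was 12 at a threshold of 0.32 on the log2 scale (passed by 15.8% of all genes) and 0 at a fold of 2 (0.653%). It remained 2 without a filter (2.19% of all genes) and with a filter at percentile 75 (5.06%, with 41 members left). It was also 2 with equal array medians (3.55%), with the mean of a gene's rows (3.42%) and against the mean of the 6 other arrays (1.06%). The 31 core and cap subunits alone gave 2 as well. Over the settings that left the count at 2, the share of all genes past the fold ran from 1.06% to 5.06%. Over the alternatives the median d1 to d0 ratio of the members lay between 0.12 and 0.22 and the number highest at d1 between 24 (quantile normalization, where 23.5% of all genes were) and 28. With the filter at percentile 75, 25 of 41 members were highest at d1, against 35% of all genes. Quantile normalization lowered the median of all genes from 0.10 to 0.06. With d14 in place of d0 as the reference, the d1 ratio of 20 of the 46 members moved by more than 0.105 on the log2 scale. Leaving out the symbol-only matches, taking the row of lowest mean, counting over the reloaded arrays alone (29 members highest at d1) and keeping genes above the median on all 7 arrays were added after seeing the data. No member had a trend by limma at an adjusted p of 0.05 under any of 12 fits. No paired analysis was possible because each time point is 1 pooled array. Scanner files were not used here, so no gene's signal could be set against background.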
